A study of Mus musculus with 24 samples.

Results

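The cytoplasm RNA of epiblast-like cells (EpiLC) was compared with that of naive embryonic stem cells (nESC), both from the mouse embryonic stem cell line E14. Of the 24 RNA-seq libraries of the series, the 6 made from cytoplasm were used, 3 per cell state, and 12615 of the 29759 genes in the tables were tested because their mean reached 1 FPKM (fragments per kilobase of transcript, scaled to mapped fragments) in either cytoplasm group. The nESC grew without serum in N2B27 medium with LIF, the MEK inhibitor PD0325901 and the GSK inhibitor CHIR99021 (together "2i"). The EpiLC came from such cells, plated on gelatin in N2B27 medium that held 20 ng/ml of activin A and 12 ng/ml of bFGF, and were collected on day 3. Both states are thus the same line in the same basal medium, and the presence of LIF and 2i and of activin A and bFGF changed together, as did the time in culture. Cells were fractionated with a sucrose buffer step that isolates nuclei, RNA was extracted with TRIzol and depleted of ribosomal RNA, and stranded libraries were sequenced. Whole-cell (total), nucleoplasm and chromatin libraries of both states, 3 each, served as a comparison.

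Naive embryonic stem cells resemble the epiblast of the blastocyst before implantation. Blocking MEK stops signalling from FGF through ERK, blocking GSK3 raises Wnt signalling through beta-catenin, and LIF acts through STAT3, and together these inputs hold up a network of transcription factors that includes Nanog, Esrrb, Klf4, Tfcp2l1 and Zfp42. When the inhibitors are removed and activin and FGF are given, cells leave this state and take on features of the epiblast after implantation, such as Fgf5, Otx2, Pou3f1 and the de novo DNA methyltransferases, while Oct4 (Pou5f1) stays on. Cytoplasm RNA is the part of the transcriptome that has been exported and can be translated, so it holds mature messages and few of the transcripts kept in the nucleus.

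The values of the 2 states come from 2 tables that the authors normalized separately, so cell state and table cannot be told apart. Each library was centred on its median of log2(FPKM + 0.5) over the genes tested, which removes 1 scale per library. In low genes the FPKM worth of 1 fragment differed between an EpiLC and an nESC cytoplasm library by close to 1 factor. In the 9 pairs of libraries, 93.8% to 100% of 62 to 74 genes lay within 10% of the pair's median factor. Only genes with 1 transcript and an exonic length of 3000 to 10000 bp were used. Each value was divided by its nearest whole multiple of a step, the worth of 1 fragment, fitted per library. Part of this closeness is thus built in, and the check does not cover other genes. By the same steps, 1 FPKM in a 2 kb transcript stood for 24.2 to 44.4 fragments, so values under 1 FPKM rest on few fragments, and fold changes of such genes are understated on the log2(FPKM + 0.5) scale. FPKM sums were 1555120 to 1980220 per library, and 11533 to 11809 genes had at least 1 FPKM. Pearson's r across genes was 0.986 to 0.994 between replicates, and EpiLC replicate 3 stood apart from the other EpiLC libraries (root mean square difference 0.40 and 0.41, against 0.27 between EpiLC replicates 1 and 2). The fraction was checked on Malat1, a noncoding RNA of nuclear speckles, which had 172, 181 and 166 FPKM in the nESC and 157, 191 and 315 in the EpiLC cytoplasm libraries, beside 4864 ± 531 and 4545 ± 993 (SD, n = 3) in chromatin. EpiLC replicate 3 was the highest of the 6. The labels do not say that replicates are separate cultures, so p-values measure only how much these samples vary, which may be technical variation.

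Many messages differed by at least 2-fold between the states in cytoplasm, in both directions. The leading losses in EpiLC were genes of naive cells such as Trpm1, Spic, Jam2 and Tcl1, and the leading gains joined genes of the epiblast after implantation (Car4, Fgf5, Dnmt3b) with a group of genes for ribosome assembly (Rrp1, Rrp36, Rrp7a) and the chaperone gene Hsp90aa1. Rrp1, Rrp36, Rrp7a and Hsp90aa1 had at most 2.63 FPKM in any nESC cytoplasm library, and their mean FPKM in total RNA differed by less than 2-fold. Whether the deposited nESC cytoplasm values leave out fragments of these genes was not tested, so their folds cannot be read as a gain in EpiLC. With limma's moderated test, 3295 of 12615 genes (26.1%) had an adjusted p under 0.05 and at least 2-fold, 1667 higher (13.2%) and 1628 lower (12.9%) in EpiLC. After scaling each library to one FPKM sum instead of its median, the split was 2298 higher and 1274 lower, since that scaling moves the median of all genes by 0.23 (log2). Values below are relative to the centred median, at which the median of all genes was 0.07. Counted with no test, 3278 genes (26%) differed by at least 2-fold with no overlap between the libraries of the groups, and without regard to fold 69.6% of genes did not overlap. At least 8-fold (log2 of 3), 151 were called higher and 179 lower, and at least 32-fold (log2 of 5), 24 and 23. In bulk RNA, fewer cells that hold a message and less of it per cell cannot be told apart.

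**Figure D1:**
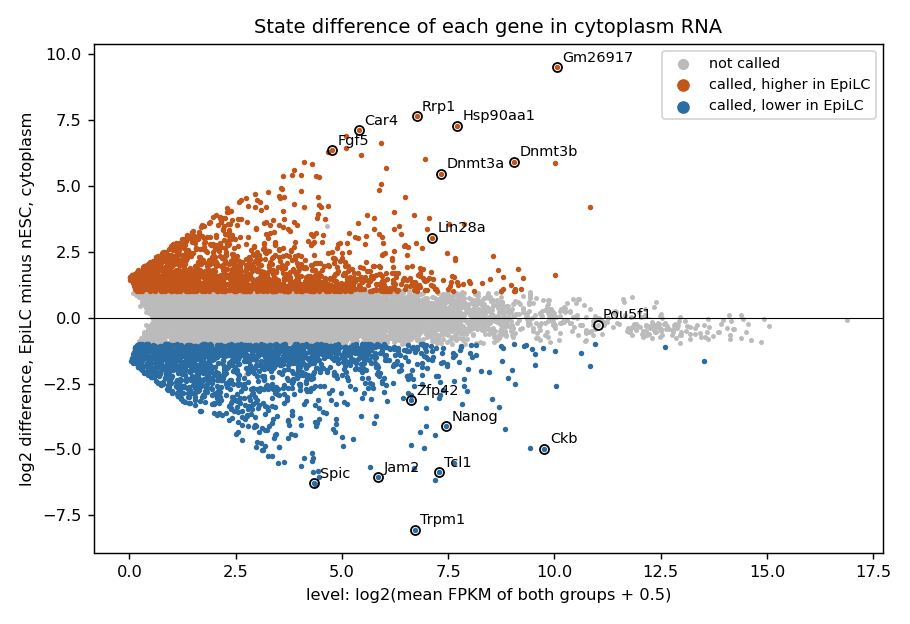
Each point is 1 of the 12615 genes, with its mean level over the 6 cytoplasm libraries (log2 FPKM) on the x axis and its log2 difference, EpiLC minus nESC, on the y axis; colours mark the 1667 genes called higher and the 1628 called lower. Called genes lie on both sides of 0, and Trpm1, among the lowest, is at -8.05.

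Of 26 naive pluripotency genes tested, 21 fell and 1 rose in EpiLC cytoplasm, beside 12.9% of all genes that fell, and the list's median was -3.09. Nanog, a homeobox factor (chromosome 6, 122707489 to 122714633, mm10) that defines naive cells, had 327, 332 and 333 FPKM in the nESC libraries and 18.5, 19.4 and 19.9 in the EpiLC libraries. The libraries of each group lay close together and there was no overlap (log2 difference -4.12, SE 0.07, adjusted p = 2.72e-09). Zfp42, a zinc finger gene also known as Rex1 and used as a marker of the naive state, had 168, 187 and 172 against 19.5, 19.15 and 22.6 FPKM (log2 difference -3.13, SE 0.09, adjusted p = 1.9e-08). Esrrb, an orphan nuclear receptor of the naive network, had 264, 277 and 282 against 39.6, 37.7 and 26.2 FPKM (log2 difference -3.05, SE 0.15, adjusted p = 5.16e-07), with EpiLC replicate 3 the lowest. These genes lost most of their cytoplasm message but kept 18.5 to 39.6 FPKM in EpiLC.

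Other naive genes came close to 0. Klf4, a Krüppel-like factor downstream of LIF, had 12.7, 16.8 and 18.3 FPKM in nESC and 0.504, 0.394 and 0.40 in EpiLC (log2 difference -4.18, SE 0.16, adjusted p = 1.15e-07). Spic, an ETS family factor, went from 36.7, 40.2 and 42.2 to 0, 0.103 and 0 FPKM (log2 difference -6.29, SE 0.14, adjusted p = 8.93e-09), and EpiLC replicates 1 and 3 are listed at 0. The junction protein gene Jam2 went from 119, 111 and 110.0 to 1.85, 1.05 and 1.03 FPKM (log2 difference -6.05, SE 0.17, adjusted p = 2.19e-08). For these 3 the groups lay far apart compared with the spread of their libraries. Tcl1, a coactivator of AKT, had 316, 299 and 303 FPKM in nESC and 6.15, 5.66 and 3.46 in EpiLC (log2 difference -5.87, SE 0.19, adjusted p = 3.68e-08). Tfcp2l1, a factor that answers to LIF and to GSK3 inhibition, had 54.9, 64.2 and 68.4 and 1.23, 2.74 and 1.42 (log2 difference -4.89, SE 0.22, adjusted p = 2.85e-07). Dppa3, also called Stella, had 25.1, 18.2 and 20.6 and 2.68, 2.55 and 2.29 (log2 difference -2.90, SE 0.15, adjusted p = 5.35e-07). The threonine dehydrogenase gene Tdh, an abundant enzyme message of mouse naive cells, had 750.5, 748 and 776 and 76.8, 79.3 and 65.7 (log2 difference -3.41, SE 0.10, adjusted p = 2.07e-08). Even the highest EpiLC library of each of these 4 lay below its lowest nESC library. The 4 list members that were not called were Gbx2 (-0.53), Fgf4 (-0.51), Rex2 (-0.11) and Bmp4 (0.72). Fgf4, the FGF ligand that naive cells make themselves, kept 67.6, 74.5 and 65.9 FPKM in EpiLC against 89.3, 97.5 and 97.8 in nESC.

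Trpm1, a cation channel gene (chromosome 7, 64153835 to 64269775), had the deepest fall of the genes named here, with 219, 203 and 206 FPKM in nESC and 0.229, 0.191 and 0.606 in EpiLC (log2 difference -8.05, SE 0.16, adjusted p = 5.65e-09). Crxos, a homeobox gene, followed the same course at 299.8, 286 and 276 and 3.49, 5.68 and 2.46 FPKM (-6.16). Pglyrp1, a peptidoglycan recognition protein gene, had 44.3, 34.5 and 41.9 and 0.109, 0 and 0 (-6.30). All 3 were abundant or moderate messages in nESC cytoplasm and at most a few FPKM in EpiLC. The surface antigen gene Ly6a was at -5.86, Fxyd2, a regulator of the sodium pump, at -5.81, S100a13, a calcium-binding protein gene, at -5.72, Calcoco2, an autophagy receptor gene, at -5.67 and Mylpf, a myosin light chain gene of fast muscle, at -5.53. Mylpf varied widely, with 397, 183 and 597 FPKM in the nESC libraries, and still did not overlap with 6.44, 8.96 and 7.06 in EpiLC. One gene with no matched symbol, ENSMUSG00000102367.6, had 20.6, 19.7 and 24.1 FPKM in nESC and is listed at 0 in all 3 EpiLC libraries.

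Of 16 core pluripotency genes 7 rose and 1 fell in cytoplasm, with a median of 0.85. Pou5f1, the gene of OCT4, had 2388, 2075 and 2182 FPKM in nESC and 1884, 2059 and 1812 in EpiLC, a log2 difference of -0.26 (SE 0.10, adjusted p = 0.0444) that did not reach 2-fold. The OCT4 message was thus abundant in both states. Sox2, its partner on DNA, fell from 182, 201 and 196 to 68.9, 72.4 and 59.5 FPKM (log2 difference -1.58, SE 0.10, adjusted p = 1.81e-06) and was the only member called lower. Utf1, a chromatin factor of pluripotent cells, rose from 18.6, 23.2 and 22.2 to 259, 242 and 204 FPKM (log2 difference 3.37, SE 0.12, adjusted p = 7.71e-08). Lin28a, an RNA-binding protein gene that blocks let-7 maturation, rose from 29.8, 27.7 and 29 to 258, 263 and 226 FPKM (log2 difference 3.03, SE 0.09, adjusted p = 3.3e-08). For Utf1 and Lin28a every EpiLC library lay far above every nESC library. Zscan10, a zinc finger factor, was higher at 1.59, and Dppa2 (1.42), Dppa4 (1.43), Foxd3 (1.19) and Sall1 (1.10) made up the rest of the 7. After scaling to one sum 9 members were called higher.

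Of 31 formative epiblast genes tested, 26 rose and none fell, beside 13.2% of all genes that rose, with a median of 2.63. Fgf5, a growth factor of the epiblast after implantation (chromosome 5, 98254184 to 98277030), had 0.0684, 0.107 and 0.227 FPKM in nESC and 54.4, 55.6 and 49.4 in EpiLC (log2 difference 6.35, SE 0.14, adjusted p = 8.93e-09). Pou3f1, the POU factor OCT6, had 0.0429, 0.302 and 0.107 and 38.4, 43.1 and 32.3 (log2 difference 5.84, SE 0.18, adjusted p = 3.3e-08). Car4, a carbonic anhydrase gene, had 0, 0.133 and 0.13 and 90, 79.7 and 81.1 (log2 difference 7.11, SE 0.13, adjusted p = 3.73e-09). All 3 had at most 0.302 FPKM in any nESC library and at least 32.3 in any EpiLC library. Otx2, a homeobox factor that directs binding sites of OCT4 in the transition, was already present in nESC at 10.8, 10 and 11.3 FPKM and reached 112, 98.2 and 105 in EpiLC (log2 difference 3.18, SE 0.09, adjusted p = 2.72e-08). Lef1, a Wnt effector, had 0.504, 0.366 and 0.409 and 25.8, 23.1 and 17.2 (log2 difference 4.53, SE 0.18, adjusted p = 1.24e-07). Myc, a growth regulator gene, rose from 0.269, 0.269 and 0.214 to 10.3, 7.35 and 8.69 (log2 difference 3.56, SE 0.16, adjusted p = 2.79e-07). Otx2 therefore differed from the others in its start, not in its direction. Krt8 (-0.42), Etv5 (0.12), Tcf15 (0.44), Tead2 (0.81) and Etv4 (0.84) were not called. Without EpiLC replicate 3, 25 members were called higher.

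**Figure D2:**
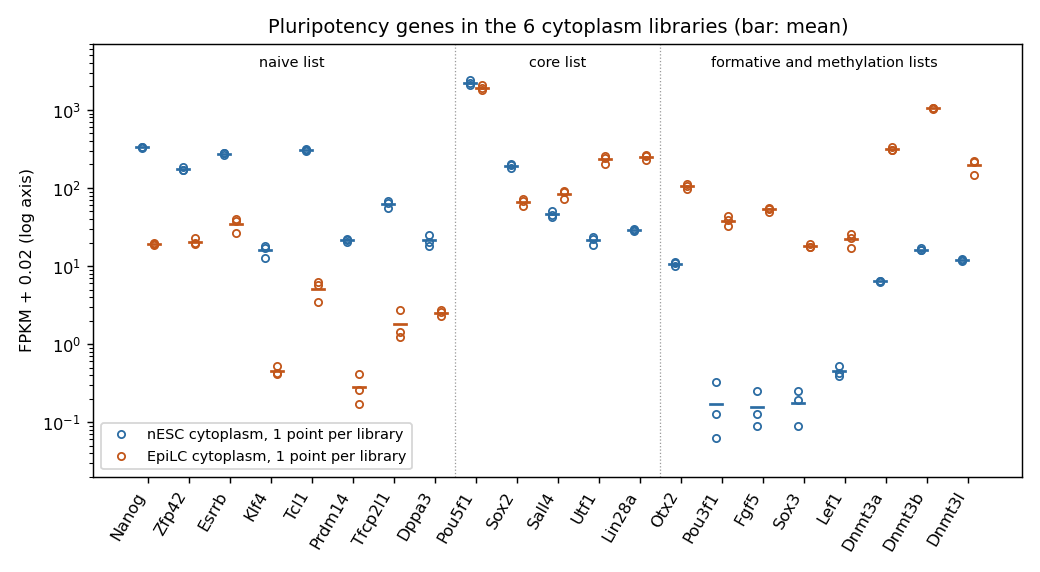
Each circle is 1 cytoplasm library (3 nESC, 3 EpiLC) and each bar a group mean, in FPKM + 0.02 on a log axis, for genes of the naive, core, formative and DNA methylation lists. The naive genes drawn lie lower and the formative genes drawn higher in all EpiLC libraries, while Pou5f1 lies at a like level in both groups. Members of the naive and formative lists that were not called, such as Fgf4 and Etv5, are not drawn. Dnmt3l, which is in the naive list too, is drawn with the formative and methylation genes.

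Of 12 genes of DNA methylation and demethylation 7 rose and 2 fell (median 1.24). Dnmt3b, a de novo methyltransferase, was the most abundant gainer of the list, from 15.9, 16.8 and 15.8 to 1044, 1060.3 and 1036 FPKM (log2 difference 5.92, SE 0.07, adjusted p = 3.9e-10). Dnmt3a, the second such enzyme, rose from 6.45, 6.31 and 6.34 to 334, 306 and 302 FPKM (log2 difference 5.46, SE 0.08, adjusted p = 1.64e-09). Their cofactor Dnmt3l, placed in the naive list too, rose from 12.3, 11.5 and 12 to 216, 219 and 149 FPKM (log2 difference 3.89, SE 0.16, adjusted p = 1.28e-07) and was the naive list's 1 gene that rose. The groups did not overlap for any of the 3, and Dnmt3l was lowest in EpiLC replicate 3. The maintenance enzyme gene Dnmt1 (0.45) and its recruiting factor Uhrf1 (-0.25) were not called. Among the enzymes that oxidize or remove methylcytosine, Tet2 fell (-2.60), while Tet1 (1.24), Tet3 (2.06) and the glycosylase gene Tdg (1.66) rose. Mbd3, a subunit of a repressor complex, rose (1.23). Zfp57, which protects imprints, fell (-1.41).

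The start regions of 4 of these genes are printed because they carry short motifs of factor families that turn over between the states. They are RefSeq windows of GRCm38.p6, 250 bases before to 50 after a transcript start, and capitals mark the motif on the printed strand. Searched on both strands were GGGTGTGG (the letters bound by KLF factors), TAATCC (OTX2), CCGGAAGT (ETS factors) and TCAAGGTCA (ESRRB), none of which overlap in the windows shown. Zfp42 (chr8:43306960-43307259, minus strand) and Dnmt3l (chr10:78049592-78049891, plus strand) hold the KLF letters. Nanog (chr6:122707239-122707538, plus strand) and Otx2 (chr14:48665060-48665359, minus strand) hold the OTX2 letters.
Zfp42: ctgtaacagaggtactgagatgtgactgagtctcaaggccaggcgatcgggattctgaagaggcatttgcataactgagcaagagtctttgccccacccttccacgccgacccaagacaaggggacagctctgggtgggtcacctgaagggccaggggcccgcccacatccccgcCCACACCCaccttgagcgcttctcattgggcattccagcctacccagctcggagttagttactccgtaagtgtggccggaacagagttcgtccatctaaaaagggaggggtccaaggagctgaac
Dnmt3l: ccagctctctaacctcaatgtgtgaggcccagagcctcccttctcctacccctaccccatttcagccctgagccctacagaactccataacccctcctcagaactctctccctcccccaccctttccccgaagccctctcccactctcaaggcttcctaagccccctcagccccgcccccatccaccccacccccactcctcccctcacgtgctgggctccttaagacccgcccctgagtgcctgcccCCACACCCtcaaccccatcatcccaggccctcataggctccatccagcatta
Nanog: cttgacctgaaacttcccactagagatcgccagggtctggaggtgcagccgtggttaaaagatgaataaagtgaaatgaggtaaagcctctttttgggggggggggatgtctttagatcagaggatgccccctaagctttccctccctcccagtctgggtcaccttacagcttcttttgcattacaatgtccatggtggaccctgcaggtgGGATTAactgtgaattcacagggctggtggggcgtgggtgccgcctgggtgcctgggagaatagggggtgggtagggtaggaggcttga
Otx2: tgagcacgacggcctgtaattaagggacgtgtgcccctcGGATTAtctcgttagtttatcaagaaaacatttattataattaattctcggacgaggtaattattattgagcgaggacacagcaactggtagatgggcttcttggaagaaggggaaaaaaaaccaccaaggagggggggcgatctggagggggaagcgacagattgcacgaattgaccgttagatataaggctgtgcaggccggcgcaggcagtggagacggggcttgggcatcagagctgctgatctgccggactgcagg
A match is a description of letters and not a site. The window shown for Dnmt3l is 1 of 3 for that gene, that for Otx2 1 of 4 and that for Nanog 1 of 2. Over the 32851 windows of all genes, 3.56% held the KLF letters, 7.06% those of OTX2, 3.89% those of ETS factors and 0.423% those of ESRRB. In windows of genes called higher in EpiLC the shares were 4.26%, 5.58%, 2.52% and 0.12%, and in those called lower 3.55%, 5.98%, 3.43% and 0.312%. For the 12336 windows of the 9621 tested genes that matched by symbol they were 3.62%, 5.6%, 8.22% and 0.332%, so the ETS letters were less frequent in called genes of either direction than among all genes tested, with no test made.

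FGF signals through receptor kinases to ERK, which in turn induces its own inhibitors. Of 11 FGF ligand, receptor and adaptor genes 6 rose and 1 fell, and of 17 ERK feedback genes and ETS targets 8 rose and none fell (medians 1.15 and 0.95). The ligand gene Fgf15 went from 0.0492, 0.483 and 0.206 to 32.2, 34.2 and 28.6 FPKM (log2 difference 5.41, SE 0.20, adjusted p = 9.62e-08), while the ligand gene Fgf17 fell from 5.55, 6.33 and 7.94 to 0.762, 0.466 and 0.905 (log2 difference -2.61, SE 0.19, adjusted p = 4.27e-06). The receptors Fgfr1 (1.15) and Fgfr2 (2.02) and the docking protein gene Gab1 (1.27) rose, as did the ligand gene Fgf8 (2.33). Dusp6, a phosphatase that turns ERK off, had 5.51, 5.65 and 5.91 and 71.7, 76.4 and 81.5 FPKM (log2 difference 3.58, SE 0.09, adjusted p = 1.31e-08), and Dusp4, a nuclear relative, 2.07, 2.03 and 1.77 and 48.9, 53.7 and 42 (log2 difference 4.25, SE 0.13, adjusted p = 3.05e-08). Both phosphatase messages had separate ranges in the 2 states. Of the Sprouty family, Spry1 (1.83) and Spry4 (2.88) rose and Spry2 (0.37) was not called, and of the PEA3 factors, Etv1 rose (2.34) while Etv4 and Etv5 did not pass. The immediate early gene Egr1 rose (1.501) and Fos (-0.27) was not called.

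Wnt pathway genes split, with 7 of 17 higher and 7 lower. Axin2, a negative feedback gene of beta-catenin signalling, fell from 19.6, 24.3 and 23.5 to 6.1, 4.4 and 4.98 FPKM (log2 difference -2.08, SE 0.14, adjusted p = 3.04e-06). Notum, a secreted enzyme that inactivates Wnt proteins, fell from 23.5, 21.6 and 21.7 to 2.97, 3.5 and 3.16 (log2 difference -2.67, SE 0.11, adjusted p = 1.7e-07). Sfrp1, a secreted Wnt antagonist, fell from 28.9, 29.7 and 32.3 to 1.47, 1.33 and 1.4 (log2 difference -4.07, SE 0.11, adjusted p = 1.9e-08), and Sp5 (-3.04), Cdx1 (-3.15) and T (-1.53), all targets of the pathway, fell too, as did Cdkn1a (-1.26), a gene with many inputs. Those that rose were the nuclear effectors Lef1, Tcf7 (1.55) and Tcf7l1 (1.93), the receptor Fzd7 (2.63), the secreted modulator Sfrp2 (1.99), the inhibitor Nkd1 (1.74) and Id3 (3.08).

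In the LIF and STAT3 list 7 of 13 genes fell and 1 rose, with a median of -1.40. Socs3, the feedback inhibitor of this pathway, went from 19.4, 18.3 and 18.5 to 2.13, 3.69 and 2.11 FPKM (log2 difference -2.70, SE 0.19, adjusted p = 3.46e-06). Bcl3 went from 8.03, 11.2 and 10.1 to 0.472, 0.805 and 0.81 (log2 difference -3.16, SE 0.17, adjusted p = 8.66e-07). The kinase genes Pim1 (-1.44) and Pim3 (-1.49) and the shared receptor subunit gene Il6st (-1.40) fell, while the receptor gene Lifr (-0.90) and Stat3 itself (-0.94) stayed short of 2-fold. Without EpiLC replicate 3, 9 members were called lower. The gene that rose was Gadd45g, a stress and differentiation gene, at 1.48, 1.73 and 1.97 and 42.5, 47.7 and 37.1 FPKM (log2 difference 4.21, SE 0.14, adjusted p = 4.42e-08). Of 20 Nodal and activin genes 4 rose and 2 fell (median 0.19), a share called (30%) close to the 26.1% of all genes. Lefty1, a feedback inhibitor, rose from 110.0, 91.3 and 98.7 to 306, 329 and 190.2 FPKM (log2 difference 1.36, SE 0.20, adjusted p = 0.000321) with EpiLC replicate 3 the lowest of its group, and its neighbour Lefty2 had 102, 105 and 105 and 76.4, 79.1 and 65.7 (-0.56, not called). Skil (2.19), a repressor of SMAD signalling, and the receptor gene Acvr2b (1.06) also rose and the proprotein convertase gene Pcsk6 fell (-2.69). Nodal itself was called lower at -1.03, but not without centring (-0.97), after scaling to one sum (-0.79) or after correction for length and GC content (-0.92). In the BMP and Id list Id3 rose, Id4 (-4.41) and Smad6 (-1.79) fell, and Id1 (-0.10) and Id2 (0.52) were not called. Of its 9 tested genes 33.3% were called, beside 26.1% of all genes, so this count is no result about the list.

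Lin28 proteins bind RNA and block maturation of let-7 microRNAs. Of 13 Lin28 and microRNA processing genes 3 rose: Lin28a, Ago1 (1.11) and Lin28b. Lin28b had 0.208, 0.128 and 0.161 FPKM in nESC and 1.82, 1.42 and 3.34 in EpiLC (log2 difference 1.90, SE 0.25, adjusted p = 0.000155), far below Lin28a on the same per-length scale. Dicer1 (0.98) was not called. Of 15 germline genes known to be silenced by DNA methylation 5 rose and 4 fell, and the counts were 2 and 4 without EpiLC replicate 3 and 8 and 2 after scaling to one sum. Mael rose (2.53) and Dazl fell (-2.21), and Sycp3 was called higher (1.19) although its libraries overlap, with EpiLC replicate 3 the highest. Of 16 imprinted genes 8 rose and 1 fell (median 1.26). Snrpn (2.85), Mest (2.90), Meg3 (1.95) and Mirg (1.71) rose and Phlda2 fell (-1.61). The maternal noncoding RNA Meg3 had 14.7, 12.7 and 13 FPKM in nESC and 48, 50 and 70.8 in EpiLC, again with replicate 3 the highest.

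Epithelial adhesion genes rose in 8 of 20 cases and fell in 2. Epcam, a surface adhesion molecule, went from 9.19, 9.41 and 7.89 to 94.1, 102 and 98.9 FPKM (log2 difference 3.35, SE 0.10, adjusted p = 2.19e-08). Esrp1, an epithelial splicing regulator, went from 0.214, 0.173 and 0.324 to 22.4, 21.3 and 23.6 (log2 difference 4.91, SE 0.14, adjusted p = 1.9e-08). Cdh1, the gene of E-cadherin, went from 41.9, 41.5 and 43.7 to 106, 99.5 and 122 (log2 difference 1.29, SE 0.09, adjusted p = 2.97e-06). All 3 had separate ranges in the groups. Cldn6 (2.75), Cldn7 (1.98) and Krt18 (2.43) rose, and Jup (-1.60) and Vim (-1.16) fell. In the basement membrane and matrix list 6 of 16 rose and 6 fell. The laminin gene Lama1 fell from 9.62, 9.31 and 10.2 to 0.581, 0.629 and 1.03 FPKM (log2 difference -3.11, SE 0.16, adjusted p = 5.23e-07) and the nidogen gene Nid1 from 25.6, 26.1 and 25.6 to 1.69, 1.72 and 1.42 (log2 difference -3.69, SE 0.12, adjusted p = 3.68e-08). The laminin genes Lamb1 (2.31) and Lama5 (1.68) and the collagen gene Col18a1 (2.54) rose. Laminin genes thus changed in both directions.

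Of 21 glycolysis genes 4 rose and 4 fell. The glucose transporters changed in opposite directions, with Slc2a1 at 49.1, 44 and 46.9 and 185, 199 and 163 FPKM (log2 difference 1.90, SE 0.10, adjusted p = 7.52e-07) and Slc2a3 at 441, 407 and 432 and 63.2, 67.1 and 62 (log2 difference -2.78, SE 0.08, adjusted p = 2.19e-08). The lactate exporter Slc16a3 rose from 28.2, 25.7 and 28.2 to 330.4, 361 and 329.7 (log2 difference 3.56, SE 0.08, adjusted p = 1.11e-08), and Ldha (1.61) and Pdk1, which restrains pyruvate entry into mitochondria (2.39), rose. Besides Slc2a3, the genes Pfkp (-1.71), Ldhb (-1.16) and Hk1 (-1.26) fell. Of 77 nuclear respiratory chain genes 70 had a lower mean in EpiLC but only Ndufb4 was called (-1.4997), with a list median of -0.38 that is -0.14 after scaling to one sum. Of 81 cytosolic ribosomal protein genes 77 had a lower mean, 2 fell and 1 rose, with a median of -0.45 (-0.21 after that scaling). The ones that fell were the relatives Rpl10l (-1.23), whose call was lost after that scaling, and Rpl3l (-1.31), and the one that rose was Rpl12. Summed over this list, the nESC libraries held 670438 to 761076 FPKM and the EpiLC libraries 481126 to 548246. Near-identical pseudogenes make the assignment of reads to ribosomal protein genes uncertain.

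The cholesterol list had 5 of 22 higher and 1 lower, and 21 of 22 had a higher mean in EpiLC. Lss (1.93), Sqle (1.42) and Dhcr7 (1.02) were among those that rose, and Ebp fell (-2.18). In amino acid and one-carbon metabolism 3 of 26 rose and 3 fell: Asns, the asparagine synthetase gene, went from 885, 901 and 938 to 172, 161 and 160.3 FPKM (log2 difference -2.51, SE 0.08, adjusted p = 3.05e-08), Tdh and Cbs (-1.38) fell, and the transporter Slc38a2 (2.26), Mat2a (1.22) and Gldc (1.06) rose. No gene of the proteasome (31) or of the endoplasmic reticulum chaperone and translocon list (33) was called at 2-fold with limma. At an unadjusted p under 0.05 and any fold 15 and 17 of them differed, and after scaling to one sum 2 and 1 rose. Translation factors had 5 of 37 higher, a share (13.5%) close to the 13.2% of all genes that rose, led by Eif3b (1.44), and Eif2s2 lower (-1.32). Of 78 mitochondrial ribosomal protein genes 1 rose and 1 fell. Heat shock chaperones had 5 of 23 higher, among them Hsph1 (1.64), and Hspb1 lower (-2.29). The shares called in the cholesterol (27.3%), amino acid (23.1%), heat shock (26.1%), p53 (22.7%) and Lin28 and microRNA processing (23.1%) lists were near the 26.1% of all genes, so these counts are no result about the lists.

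Of 65 replication histone genes 4 rose and none fell. They were Hist1h2aa (3.49), Hist1h2ba (3.17), Hist3h2ba (1.86) and Hist1h1t (1.42), of which Hist1h2aa, Hist1h2ba and Hist1h1t are known as testis variants. Hist1h2ba had 18.8, 15.2 and 13.4 FPKM in nESC and 137, 162 and 153 in EpiLC. Near-identical copies make other histone genes uncertain. In the cell cycle list Ccne1 (1.86) and Mki67 (1.19) rose, and the inhibitors Cdkn1a (-1.26) and Cdkn2a (-1.49) and the cyclin Ccnd3 (-1.14) fell, of 26. The share of this list called was 19.2%, beside 26.1% of all genes, so the count is no result about the list. In the p53 and apoptosis list of 22 the pro-apoptotic genes Bcl2l11 and Pmaip1 and the p53 target Zmat3 (1.26) rose and Cdkn1a and Casp8 (-1.45) fell. Bcl2l11, the gene of BIM, had 2.14, 2.11 and 2.06 FPKM in nESC and 18.3, 18.4 and 18.1 in EpiLC (log2 difference 2.80, SE 0.11, adjusted p = 1.03e-07), and Pmaip1, the gene of NOXA, 0.193, 0.201 and 0.481 and 7.95, 9.03 and 10.2 (log2 difference 3.55, SE 0.18, adjusted p = 5.2e-07). Of 13 protein genes of the mitochondrial genome 2 rose and 2 fell, a share called (30.8%) close to the 26.1% of all genes. Without EpiLC replicate 3 none rose. The lower call of mt-Co3 (-1.12) was lost after scaling to one sum (-0.88) and after correction for length and GC content (-0.84). The complex I subunit mt-Nd6, the only one on the other strand of that genome, fell from 91.1, 77.5 and 80.8 to 13.3, 9.23 and 18.3 FPKM (log2 difference -2.67, SE 0.20, adjusted p = 5.28e-06). Of 14 nuclear noncoding RNAs 7 were called higher, with Gm26917 and Miat (3.00) at the top. Gm26917 had at most 3.46 FPKM in nESC cytoplasm, beside a mean of 4926 in nESC total RNA. Its fold in cytoplasm therefore cannot be read as a gain in EpiLC. Neat1, the RNA of paraspeckles, fell (-1.03), a call lost without centring (-0.98) and after scaling to one sum (-0.80). Of 12 spliced hosts of small nucleolar RNAs Dancr (1.13) and Snhg5 (1.02) rose and Snhg6 (-1.13) and Snhg3 (-1.09) fell, which became 4 and 0 after scaling to one sum. Of 18 housekeeping genes Gusb (1.16) and Polr2a (1.36) rose, B2m fell (-1.63), and Gapdh (0.07) and Actb (0.78) were not called. The shares called were 33.3% in the small nucleolar RNA host list and 16.7% in the housekeeping list, beside 26.1% of all genes. The counts of these lists are thus no result about them. Several calls near 2-fold depended on the setting. Ccnd3 (-0.90), Vim (-0.92), Ldhb (-0.92), Snhg3 (-0.85) and Snhg6 (-0.89) were lost after scaling to one sum, and Sycp3 (0.77) without EpiLC replicate 3. Ago1 (0.92), Tet1 (0.93), Fgfr1 (0.88), Mki67 (0.94) and Dhcr7 (0.92) were lost after correction for length and GC content. Dhcr7 was also lost without EpiLC replicate 1 (0.93), and Acvr2b without nESC replicate 3 (0.99) or EpiLC replicate 2 (0.98). Other calls near 2-fold were lost too.

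**Figure D3:**
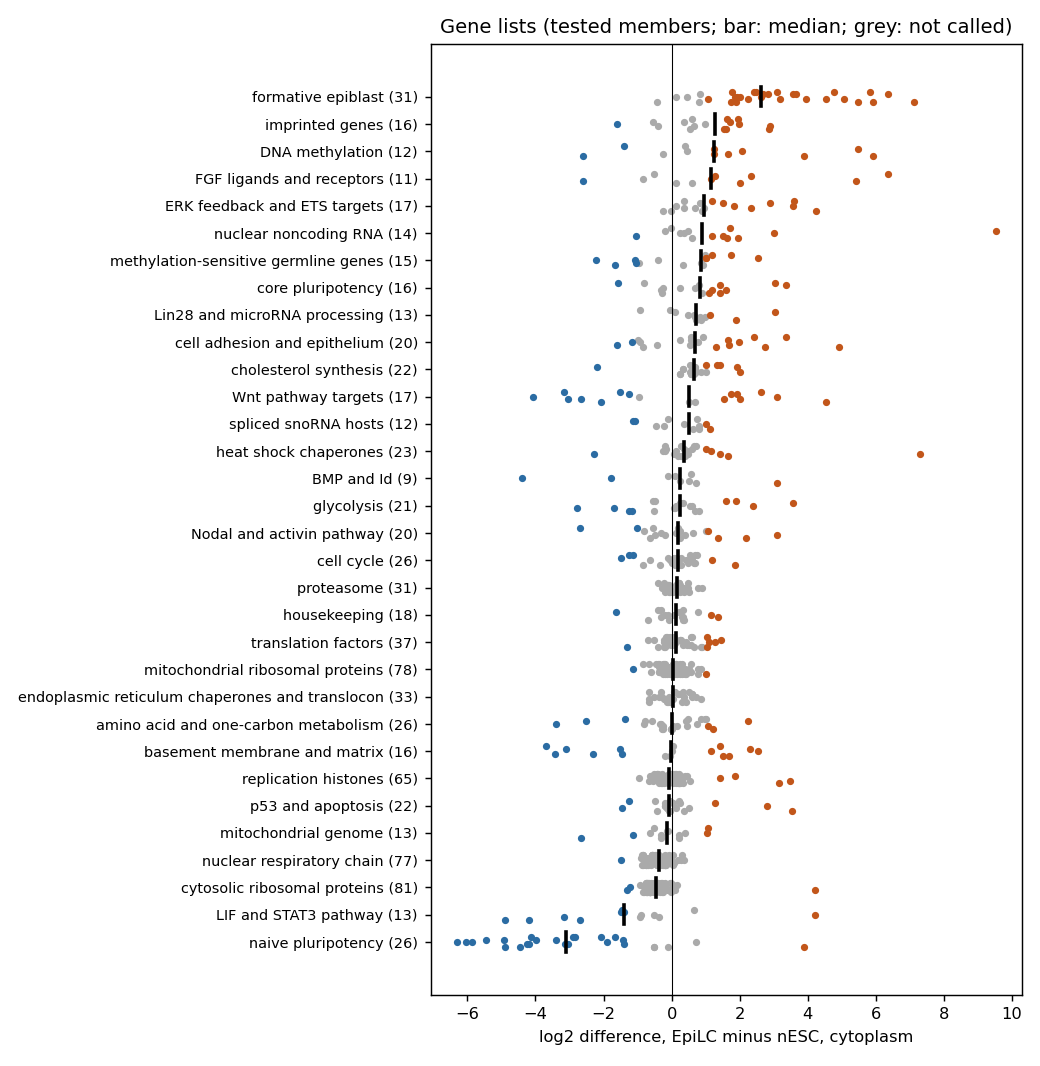
Each point is a tested member of a list, at its log2 difference in cytoplasm (EpiLC minus nESC); orange marks genes called higher, blue called lower and grey not called, the bar is the list's median and the number in brackets the members tested. Of the lists shown, those with at least 9 tested members, the naive list lies lowest (-3.09) and the formative list highest (2.63), and every proteasome gene lies within 1 log2 unit of 0.

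Most markers of other cell types were low or absent. Of 16 primitive endoderm genes 11 stayed under 1 FPKM in all 6 libraries, of 13 trophectoderm genes 7, of 14 mesoderm genes 11, of 12 neural genes 8, of 14 fibroblast and feeder genes 8 and of 18 genes of the 2-cell-like state 17. Summed, the trophectoderm list had 50.9 to 54.6 FPKM in the nESC libraries and 9.35 to 11.6 in the EpiLC libraries, and the fibroblast list 29.5 to 33.9 and 24.6 to 31.2. Apoe, an apolipoprotein gene, made up most of the primitive endoderm list, with 2911, 2778 and 2763 FPKM in nESC and 759.6, 804 and 913 in EpiLC (log2 difference -1.83, SE 0.09, adjusted p = 3.82e-07). Tfap2c, a factor that naive cells also express, fell from 21.4, 20.8 and 22.3 to 0.309, 0.32 and 0.177 (log2 difference -4.90, SE 0.14, adjusted p = 2.19e-08), and Tead4 fell (-2.90). The fibroblast marker Thy1 rose from 0.432, 1.21 and 1.27 to 12.1, 6.84 and 8.17 (log2 difference 2.66, SE 0.28, adjusted p = 4.47e-05), while Postn is listed at 0 in all 6 libraries. By count, primitive endoderm genes had 1 of 4 tested members higher and 3 lower, trophectoderm 0 and 3 of 5, mesoderm 0 and 2 of 2, neural 1 and 1 of 2, fibroblast 4 and 1 of 6 and the 2-cell list 0 and 0 of 1. The summed primitive endoderm list had 2777 to 2926 FPKM in nESC and 765 to 918 in EpiLC, the mesoderm list 9.54 to 13.1 and 1.48 to 2.40, the neural list 38.2 to 43.4 and 22.7 to 27.7 and the 2-cell list 59.9 to 74.3 and 55.1 to 72.0. The part of other cells in any result was not tested.

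The state difference in cytoplasm was then set against that in whole-cell RNA, to find messages whose change in cytoplasm was larger or smaller than in the cell as a whole. Among the 1667 genes called higher in cytoplasm 1635 had a higher mean in total RNA too, and among the 1628 called lower 1556 had a lower one. Across the 12615 genes the differences in the 2 fractions had a Pearson's r of 0.845, and genes are not independent. The difference between the fractions itself was tested as an interaction, (EpiLC cytoplasm minus EpiLC total) minus (nESC cytoplasm minus nESC total), with each side inside 1 table. With limma, 1080 genes (8.56%) passed at 2-fold, 330 with a value above 0 (2.62%) and 750 below (5.95%). With each library centred on genes of at least 5 FPKM, the split was 193 and 1130, and with no filter on low values 974 and 537. Of the 3295 genes called in cytoplasm, 559 (17%) were also called here.

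**Figure D4:**
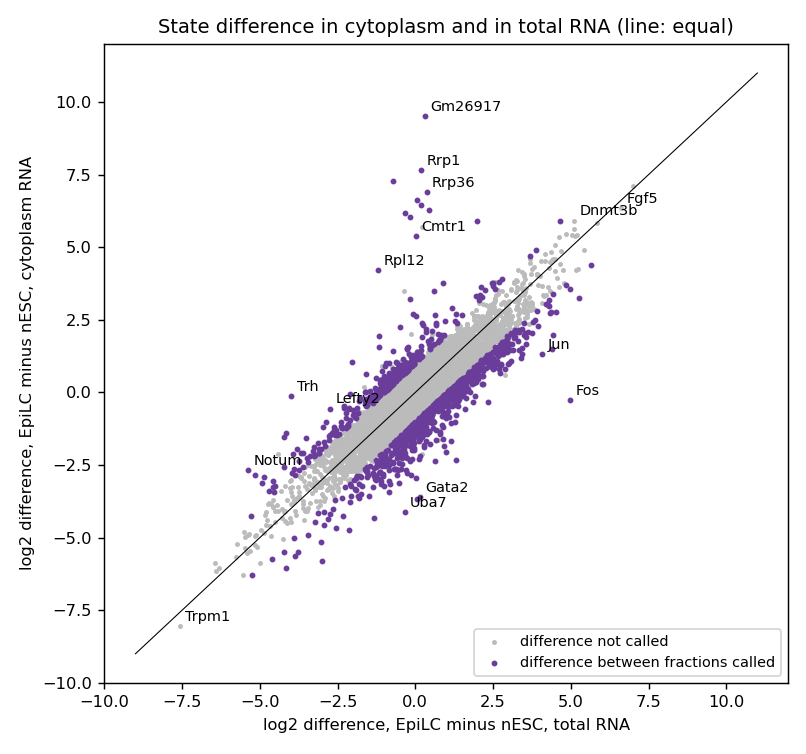
Each point is a tested gene, with its log2 difference (EpiLC minus nESC) in total RNA on the x axis and in cytoplasm RNA on the y axis; the line marks equal differences and purple the 1080 genes whose difference between the fractions was called. Most genes follow the line, and a small group with Rrp1, Rrp36, Cmtr1 and Gm26917 lies near 0 in total RNA and above 5 in cytoplasm.

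In the naive list 9 of 26 genes had a called value above 0 and 1 below. For the genes that fell this means a smaller fall in cytoplasm than in total RNA. Zfp42 was at -3.13 in cytoplasm and -4.92 in total RNA on the log2 scale, where its mean went from 391 ± 19.5 to 12.3 ± 0.454 FPKM (difference 1.79, SE 0.10, adjusted p = 1.67e-07). Dppa3 was at -2.90 and -4.86 (difference 1.96, SE 0.21, adjusted p = 3.4e-05), and Tdh at -3.41 and -4.72 (difference 1.31, SE 0.11, adjusted p = 4.75e-06). Notum of the Wnt list was at -2.67 and -5.37 (difference 2.69, SE 0.12, adjusted p = 2.68e-08). These messages were therefore less depleted in EpiLC cytoplasm than in EpiLC total RNA. Nanog did not show this, with values of -4.12 and -4.23 (difference 0.11, SE 0.07, adjusted p = 0.247), and Klf4 had the opposite sign, with -4.18 in cytoplasm and -2.76 in total RNA (difference -1.42, SE 0.18, adjusted p = 7.95e-05). Trh, the gene of thyrotropin-releasing hormone, had 167, 147 and 152 FPKM in nESC cytoplasm and 169, 176 and 107 in EpiLC cytoplasm, which overlap, while total RNA had 381 ± 39.5 and 23.4 ± 1.92 (difference 3.87, SE 0.23, adjusted p = 4.28e-07). Lefty2 also fell less in cytoplasm than in total RNA, where it had 195 ± 19.6 and 28.5 ± 1.23 FPKM (difference 2.19, SE 0.12, adjusted p = 2.47e-07).

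In the formative list 7 of 31 genes had a called value below 0 and none above, a smaller rise in cytoplasm than in total RNA on the log2(FPKM + 0.5) scale. Otx2 rose by 3.18 in cytoplasm and stood at 4.31 in total RNA (difference -1.13, SE 0.11, adjusted p = 1.14e-05). Lin28b stood at 1.90 and 3.56 (difference -1.66, SE 0.27, adjusted p = 0.000413), and Krt18 at 2.43 and 3.78 (difference -1.35, SE 0.14, adjusted p = 2.89e-05). Lin28b was under 1 FPKM in every nESC cytoplasm library, where adding 0.5 understates its rise. Whether Lin28b rose less in cytoplasm therefore cannot be told from these values. Fgf5 (-0.27), Pou3f1 (-0.01) and Dnmt3b (0.82) were not called. Dnmt3l rose more in cytoplasm than in total RNA (difference 1.12, SE 0.18, adjusted p = 0.000457), where it went from 7.67 ± 0.376 to 55.3 ± 0.278 FPKM. Of 18 immediate early genes, a list chosen after the values were seen, 6 had a called value below 0. Jun, an AP-1 factor, had 5.15, 5.0 and 5.1 FPKM in nESC cytoplasm and 13.2, 13.6 and 15.1 in EpiLC cytoplasm, against 0.459 ± 0.123 and 15.7 ± 1.24 in total RNA (difference -2.77, SE 0.14, adjusted p = 1.28e-07). Fos, its partner, had 2.49, 2.86 and 2.81 and 2.2, 1.65 and 3.18 FPKM in cytoplasm, against 0.782 ± 0.674 and 36.4 ± 2.7 in total RNA (difference -5.24, SE 0.39, adjusted p = 2.46e-06). In nESC both had more in cytoplasm than in total RNA, and in EpiLC Fos had less. In cytoplasm itself 5 of the 18 rose and none fell. The share called (27.8%) was close to the 26.1% of all genes called in either direction, while 13.2% of all genes rose. The list was chosen after the values were seen, so this count is no result about it.

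A further set had messages in nESC cytoplasm that were nearly missing from nESC total RNA. Uba7, an enzyme gene of ISG15 conjugation, had 9.35, 12.3 and 16 FPKM in nESC cytoplasm and 0.447, 0.169 and 0.19 in EpiLC cytoplasm, and 0.591 ± 0.218 and 0.36 ± 0.163 in total RNA (difference -3.79, SE 0.32, adjusted p = 5.33e-06). Gata2, a factor of blood and trophoblast cells, had 6.5, 9.25 and 4.71 and 0.0174, 0.069 and 0.234 in cytoplasm and 0.202 ± 0.141 and 0.274 ± 0.151 in total RNA (difference -3.76, SE 0.33, adjusted p = 7.58e-06). Cox8b, a muscle form of a cytochrome oxidase subunit, had 7.82, 5.07 and 8.71 and 0, 0 and 0.408 in cytoplasm and 0.0598 ± 0.104 and 0.0898 ± 0.156 in total RNA (difference -3.74, SE 0.38, adjusted p = 2.12e-05). All 3 also had more in nESC nucleoplasm (7.76 ± 0.595, 3.67 ± 1.03 and 4.3 ± 0.666 FPKM in that order) than in nESC total RNA. Inka1 (difference -2.60, SE 0.18, adjusted p = 1.37e-06), Trim50 (-2.59), Tinagl1 (-2.99), Fxyd2 (-2.81) and Aldh3a1 (-2.59) had the same sign.

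Many of the largest differences between cytoplasm and total RNA belonged to genes that were far lower in nESC cytoplasm than in nESC total RNA and nucleoplasm. All 8 genes whose names are Rrp with a number, which code for proteins of ribosomal RNA processing, rose in cytoplasm with a median of 6.24, and all 8 had a called difference from total RNA, but the list was chosen after the values were seen. Rrp1 (chromosome 10, 78400384 to 78413043) had 0.481, 0.546 and 0.581 FPKM in nESC cytoplasm and 215, 213 and 217 in EpiLC cytoplasm (log2 difference 7.65, SE 0.09, adjusted p = 3.9e-10). In total RNA it had 112 ± 3.34 and 126 ± 3.67, in nucleoplasm 81.5 ± 4.26 and 151 ± 4.15, and in chromatin 27.3 ± 2.15 and 37.6 ± 2.3 (difference 7.47, SE 0.08, adjusted p = 1.27e-14). The message was thus present in every other fraction of nESC. Rrp36 had 0.0808, 0.0628 and 0 and 70.4, 70.1 and 61.5 FPKM in cytoplasm, with 26.8 ± 0.937 and 34.6 ± 1.62 in total RNA. Rrp7a had 0.497, 0.542 and 0.958 and 117, 120.4 and 118, with 46.1 ± 4.96 and 47.8 ± 3.19 in total RNA. Rrp12, Rrp15 and Rrp8 were at 6.30, 6.19 and 3.20 in cytoplasm and at 0.43, -0.33 and -0.18 in total RNA. Rrp1b (3.78) and Rrp9 (2.26) had smaller values, and Rrp9 was not low in nESC cytoplasm (66.4, 69.5 and 65.5 FPKM, beside 62.1 ± 1.89 in nESC nucleoplasm).

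Genes with other names shared this course. Exosc5, a subunit of the RNA exosome, had 3.84, 3.09 and 2.35 FPKM in nESC cytoplasm and 247, 265 and 219 in EpiLC cytoplasm, beside 101 ± 7.72 and 89.4 ± 1.5 in total RNA (difference 6.22, SE 0.18, adjusted p = 4.12e-10). Cmtr1, an enzyme that methylates the cap of messages, had 0.36, 0.453 and 0.53 and 38, 41.8 and 42, beside 27.3 ± 0.701 and 27.4 ± 0.929 (difference 5.38, SE 0.11, adjusted p = 7.22e-12). Rpl12, a ribosomal protein gene, had 191, 180.1 and 172 and 3682, 3755 and 3054, beside 3304 ± 128 and 1443 ± 22.2 (difference 5.40, SE 0.12, adjusted p = 2.32e-11). Of 12 exosome genes only Exosc5 and the nuclease gene Dis3 (3.51) were called, and no other cytosolic ribosomal protein gene rose. The exosome list was chosen after the values were seen, and its share called was 16.7%, beside 26.1% of all genes. Hsp90aa1, the inducible HSP90 chaperone, had 1.31, 2.63 and 1.74 FPKM in nESC cytoplasm and 290.3, 281 and 676 in EpiLC cytoplasm, with replicate 3 the highest, beside 4281 ± 166 and 2616 ± 196 in total RNA (difference 8.004, SE 0.38, adjusted p = 5.58e-08). Its constitutive relative Hsp90ab1 was at 0.71 and not called. Of 44 other ribosome assembly genes, also listed after the values were seen, 6 rose (13.6%) and none fell (median 0.57), a share close to the 13.2% of all genes, with Ncl, the nucleolin gene, at 1.42.

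The noncoding transcripts Gm26917, Gm42418 and AY036118 lie side by side on chromosome 17 (39843013 to 39846341, 39846958 to 39848788 and 39847113 to 39848035, mm10), where AY036118 lies within Gm42418, and they are known to overlap ribosomal RNA sequence. Gm26917 had 3.46, 1.68 and 1.96 FPKM in nESC cytoplasm and 2329.7, 2383 and 1688 in EpiLC cytoplasm, beside 4926 ± 1269 and 6015 ± 599 in total RNA (difference 9.20, SE 0.32, adjusted p = 2.53e-09), and it is listed at 0 in chromatin of both states. AY036118 had 0.112, 0.175 and 0.468 and 50.5, 70.5 and 81.5, beside 15.8 ± 1.38 and 18.2 ± 5.26 (difference 6.28, SE 0.30, adjusted p = 6.48e-08). Gm42418, named after its values were seen, had 32.4, 29.4 and 34.6 and 2253, 2158 and 1661 in cytoplasm. Of the 16 genes with a difference of more than 8-fold upward, 13 are those named above as low in nESC cytoplasm. The others were Trh, Nlrp12 and Gm10130. Gm10130 was also at 0 in nESC cytoplasm, but had means of only 2.05 FPKM in nESC total RNA and 0.823 in nucleoplasm. Nlrp12 had a mean of 4.01 in nESC cytoplasm, beside 39.3 in total RNA and 4.76 in nucleoplasm. Downward there were 7: Fos, Uba7, Gata2, Cox8b, Myl2, Myl4 and Ccdc73. What made these values low in nESC cytoplasm was not tested, and neither was whether the counting, the annotation or a filter left fragments of these genes out of the nESC cytoplasm values, so their folds in cytoplasm cannot be read as a gain in EpiLC. For the Rrp genes the list's median was 0.12 in total RNA, beside 3.56 for the formative genes. Gene overlap and near-identical copies make Rpl12 and the 3 noncoding transcripts uncertain, as strand use in counting is not given in the sources used here.

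**Figure D5:**
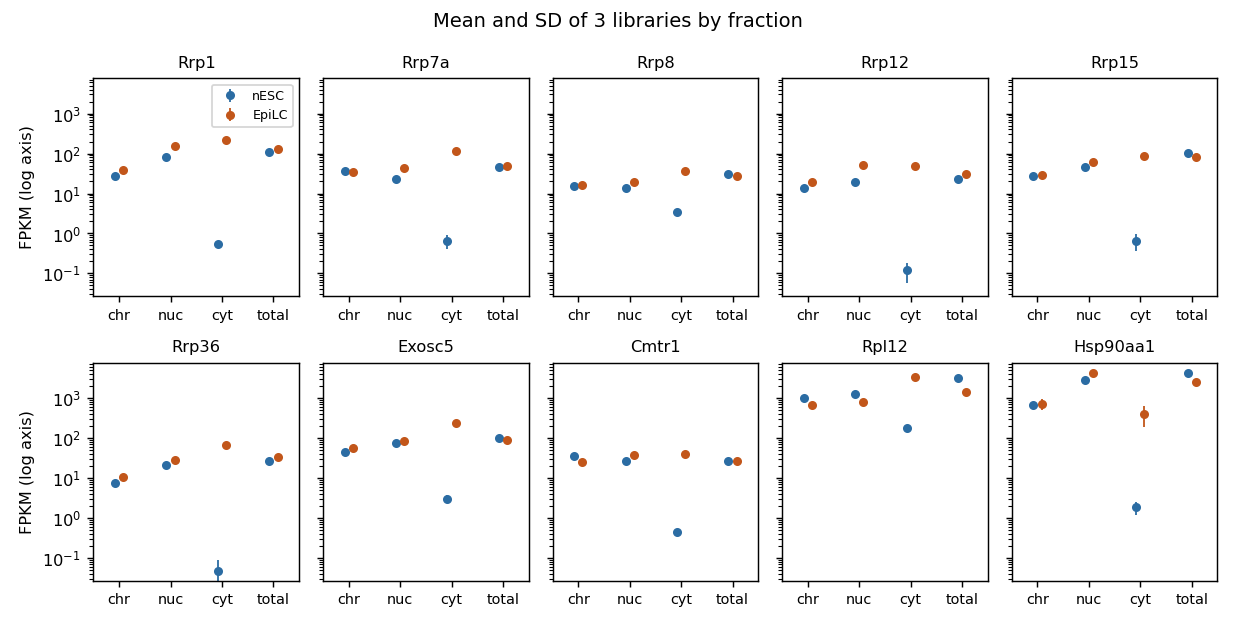
Mean and SD of 3 libraries (FPKM, log axis) of 10 genes in chromatin (chr), nucleoplasm (nuc), cytoplasm (cyt) and total RNA of nESC (blue) and EpiLC (orange); an SD smaller than the point is hidden by it. In each panel the nESC cytoplasm point lies below the nESC points of the other 3 fractions, and EpiLC cytoplasm does not drop by the same extent.

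A last group, muscle contraction genes, was listed after Mylpf and Myl9 had been seen at the ends of the ranking. Of 20 tested, 10 rose (50%) and 5 fell (25%), beside 13.2% and 12.9% of all genes (list median 0.99). Mylpf and Myl9 are counted among these calls, so the count is no result about the list. Myl9, a smooth muscle myosin light chain, went from 0, 0 and 0.144 to 30.5, 31.7 and 38.3 FPKM (log2 difference 5.90, SE 0.15, adjusted p = 1.59e-08), and the actin-binding gene Cnn1 from 0, 0.0604 and 0.12 to 13.3, 15.9 and 14.2 (log2 difference 4.69, SE 0.15, adjusted p = 3.68e-08). Tagln (1.90) and Acta2 (2.64), also smooth muscle genes, rose. The striated muscle genes Mylpf, Tnni1 (-3.11), Myl2 (-2.31) and Myl4 (-2.06) fell. Myl2 had 6.68, 6.23 and 7.25 FPKM in nESC and 2.19, 0.606 and 0.654 in EpiLC cytoplasm, while in total RNA it had 1.27 ± 0.259 and 5.01 ± 3.58 (difference -3.60, SE 0.76, adjusted p = 0.00257). Of the other striated muscle genes tested, Acta1 (1.75), Tnni2 (1.96) and Tnnc2 (1.08) were among those that rose. The call of Tnnc2 was lost in several settings, such as a pseudocount of 1 (0.68) and without EpiLC replicate 3 (0.95). In total RNA the mean of Myl2 was higher in EpiLC.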

How the data were processed

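RNA was measured by stranded, ribosomal RNA-depleted RNA-seq in 24 libraries (8 groups of 3), of which the 6 cytoplasm libraries carry the main comparison and 12 cytoplasm and total libraries the second. The authors deposited FPKM values per gene in 2 tables, 1 per cell state, for which the submitters' processing notes name TopHat2, Cuffnorm and the build mm10 (GRCm38). Not given in the sources used here are the versions, the annotation, how libraries were normalized and whether counting used strand. The tables hold 29759 genes each, 173 of them without a symbol. Tables were joined on gene identifier, values were taken as log2(FPKM + 0.5), a gene was kept if its mean reached 1 FPKM in either cytoplasm group, and each library was centred on its median. Tests were limma 3.58.1 in R 4.3.3 (trend, two-sided, Benjamini-Hochberg over all 12615 genes), with a call at an adjusted p under 0.05 and at least 2-fold. The script was tested on simulated data. Depth was read from the steps of low values, where 88.3% to 91.4% lay within 10% of a whole number of fragments, and counting error falls as FPKM and transcript length rise. No block was used, since same-numbered nESC and EpiLC cytoplasm libraries showed no pairing. Whether same-numbered cytoplasm and total libraries of a state pair was not checked.

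The comparison, the gene lists (38, plus 5 made after seeing the values: Rrp genes, exosome, other ribosome assembly, muscle and immediate early genes) and the tests were chosen with earlier results of these data known. Genes named by rule (187) were the 12 called genes with the largest fold in each direction that did not overlap and reached 5 FPKM (clone-type and small RNA names left out), up to 4 members per list by fold, and a fixed panel. Other genes named in the text were picked after their values were seen, and some list members are not reported here. Gene positions come from GENCODE M21 and promoters from RefSeq. Alternatives were 2 other pseudocounts, other filters, scalings, fits and thresholds, the replicate block, leaving out each library, and, added after seeing the data, isolated zeros as missing and a correction for length and GC content.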

Additional observations from a re-analysis of the deposited data

Results flagged for a closer look

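Each value here is the state difference in cytoplasm minus that in total RNA on the log2 scale, and each gene passed limma's test of that difference with Benjamini-Hochberg adjustment over 12615 genes. Genes with low cytoplasm values in nESC had values above 0: Rrp1 (7.47), Rrp7a (6.58), Rrp36 (6.53), Rrp15 (6.52), Rrp12 (5.86), Rrp8 (3.38), Exosc5 (6.22), Cmtr1 (5.38), Rpl12 (5.40), Hsp90aa1 (8.004) and AY036118 (6.28). Genes of naive cells, signalling and hormone genes that fell less in cytoplasm than in total RNA, or rose more in cytoplasm, were Zfp42 (1.79), Dppa3 (1.96), Notum (2.69), Dnmt3l (1.12), Lefty2 (2.19) and Trh (3.87). Values below 0 were found for transcription factors and an RNA-binding protein gene, Klf4 (-1.42), Otx2 (-1.13), Lin28b (-1.66) and Jun (-2.77). Muscle and trophoblast or blood genes below 0 were Myl2 (-3.60), Myl4 (-3.05), Cox8b (-3.74) and Gata2 (-3.765). The other genes below 0 were Uba7 (-3.79), Tinagl1 (-2.99), Fxyd2 (-2.81), Gpsm1 (-2.67), Inka1 (-2.60), Trim50 (-2.59) and Aldh3a1 (-2.59). No explanation was weighed, and the parts of depth, nuclear carry-over and other cells in these values were not tested.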

How the results depend on the processing

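The counts of genes called in cytoplasm (3295, 1667 higher and 1628 lower) stayed within 1.5 times under other pseudocounts, no filter, other centring, no trend, robust fitting, a fit of all 8 groups and the length and GC correction. They were 2060 (981 and 1079) with a minimum of 5 FPKM and 8146 (4403 and 3743) at any fold. Scaling to one sum gave 3572, of which 64.3% were higher against 50.6%. Leaving out each library gave 3238 to 3357 in all, 1640 to 1693 higher and 1591 to 1664 lower.

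For the difference between cytoplasm and total RNA (1080, 330 and 750), no filter gave 1511 with 974 higher and 537 lower, a minimum of 5 FPKM 657 (161 and 496), centring on genes of at least 5 FPKM 193 and 1130, and any fold 5544 (2952 and 2592). Its share above 0 was 30.6%, against 64.5% with no filter and 14.6% with that centring. Leaving out each library gave 1002 to 1133 in all, 302 to 371 higher and 700 to 797 lower. The cause of these shifts was not tested.

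With the replicate number as a block, 3308 genes were called in cytoplasm (1675 and 1633) and 1076 in the difference (328 and 748). Deviations of same-numbered nESC and EpiLC cytoplasm libraries correlated at 0.077, -0.182 and -0.055, which shows no pairing by number between the states. The block treated a replicate number as the same in both states. Whether same-numbered cytoplasm and total libraries of a state pair, which bears on the difference between the fractions, was not checked.

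Of the 187 genes named by rule, signs reversed for Trh (from -0.2628 without EpiLC replicate 2 to 0.1184 without EpiLC replicate 3, 0.1145 after scaling to one sum, 0.0857 after the length and GC correction), Eif1a (0.0901 after scaling), Gapdh (from -0.004 to 0.1545 over the libraries left out) and Malat1 (from -0.0314 without EpiLC replicate 3 to 0.439), none of which was called. Calls were lost for 11 genes after the length and GC correction, 8 without EpiLC replicate 3 and 7 after scaling to one sum. In the same settings, in that order, calls were gained for 3, 1 and 9 genes. Cell state and table cannot be told apart, all libraries come from 1 cell line, and genes near 1 FPKM rest on few fragments.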
